A study of Mus musculus with 14 samples.

Results

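The genes described here are Spp1, which encodes the secreted matrix glycoprotein osteopontin, and 9 genes of the osteoblast lineage: Ibsp, Dmp1, Bglap, Bglap2, Alpl, Sp7, Runx2, Phex and Pth1r. They were chosen by gene symbol, with earlier results of these data known. All 10 were among the 50600 genes of the bulk count table, and all 10 passed the filter on low counts that left 16317 genes for testing. All 10 were also among the 32285 genes of the stromal single-cell tables, and 3 of the 10 (Spp1, Runx2 and Pth1r) were among the 11992 genes of the table of hematopoietic stem and progenitor cells (HSPC). The questions were which stromal cells hold Spp1 and whether it follows the osteoblast genes.

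The study profiled mouse bone marrow in the presence or absence of a breast tumour at another site. Bulk RNA came from marrow cells labelled as mesenchymal stem cells (MSC), with 4 libraries from tumour-free mice and 4 from mice bearing Py230 tumours, a mammary tumour line derived from a PyMT mouse. Single stromal cells came from 1 wild-type (WT) library and 1 PyMT library, PyMT being a mouse in which the polyoma middle T oncogene causes mammary tumours. Single HSPC came from 2 WT and 2 PyMT mice. The labels give neither the strain, age or sex of the mice, nor the promoter of the oncogene, nor the tumour stage, and do not say that bulk libraries came from separate animals. P-values for the bulk libraries therefore measure the spread between libraries, which may be technical.

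The bulk libraries held 4301375 to 9811251 counted reads. Defining genes of leptin-receptor-positive (LepR+) marrow stroma were present in every bulk library, with the chemokine gene Cxcl12 at 18564 to 22079 CPM (counts scaled to library size) in tumour-free and 8131 to 11854 CPM in Py230 libraries. The stromal libraries held 10222176 UMIs (unique molecular identifiers, which count captured RNA molecules) in 2190 WT cells and 15542745 UMIs in 3191 PyMT cells that passed the cell filters, and they shared 2 cell barcodes. The HSPC libraries held 16365550 to 28570481 UMIs in 2210 to 5608 cells. Defining progenitor genes were present in all HSPC libraries, with Kit at 68.3 to 146 CPM and Cd34 at 613 to 772 CPM.

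As background, osteoblasts arise from marrow stromal progenitors when the transcription factor Runx2 and then its target Sp7 (osterix) are switched on. They secrete a collagen matrix and mineralise it with the help of the phosphatase Alpl, and some are buried in it and become osteocytes, which express Dmp1 and Phex. Spp1 and Ibsp (bone sialoprotein) bind integrins and hydroxyapatite in this matrix, and Spp1 is also made by macrophages and other cells outside bone.

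Runx2 binds DNA at a short motif, ACCACA, which reads TGTGGT on the other strand, so the promoters of the matrix genes were read for it. The windows hold 250 bases before and 50 bases after each start site (RefSeq, GRCm38.p6). RefSeq windows were found for 8 of the 10 genes, 13 windows in all. The motif on either strand lay in 4 of these 13 windows, for 4 of the 8 genes, against 5506 of all 32851 windows (16.8%). Shown are the 4 secreted matrix genes, because their RNA levels are compared most closely in the results, with the motif in capitals where present.
Spp1 promoter, chr5:104434861-104435160, plus strand: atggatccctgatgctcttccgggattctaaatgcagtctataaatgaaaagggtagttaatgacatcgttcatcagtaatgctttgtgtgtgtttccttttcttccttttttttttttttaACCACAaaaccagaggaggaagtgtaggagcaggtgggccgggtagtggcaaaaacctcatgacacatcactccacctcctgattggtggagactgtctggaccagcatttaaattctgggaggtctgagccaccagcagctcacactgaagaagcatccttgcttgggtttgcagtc
Bglap promoter, chr3:88384417-88384716, minus strand: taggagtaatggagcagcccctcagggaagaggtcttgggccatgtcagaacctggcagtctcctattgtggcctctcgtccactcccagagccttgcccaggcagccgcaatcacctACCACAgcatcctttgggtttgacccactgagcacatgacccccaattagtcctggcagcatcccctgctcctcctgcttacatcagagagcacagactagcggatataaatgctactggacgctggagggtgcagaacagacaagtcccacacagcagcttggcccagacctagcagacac
Dmp1 promoter, chr5:104202367-104202666, plus strand: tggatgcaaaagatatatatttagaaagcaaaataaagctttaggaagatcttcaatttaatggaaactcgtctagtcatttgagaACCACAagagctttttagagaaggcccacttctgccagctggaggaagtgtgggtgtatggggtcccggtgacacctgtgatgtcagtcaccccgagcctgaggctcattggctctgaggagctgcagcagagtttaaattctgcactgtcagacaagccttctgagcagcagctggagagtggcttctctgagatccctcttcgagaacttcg
Ibsp promoter, chr5:104299037-104299336, plus strand: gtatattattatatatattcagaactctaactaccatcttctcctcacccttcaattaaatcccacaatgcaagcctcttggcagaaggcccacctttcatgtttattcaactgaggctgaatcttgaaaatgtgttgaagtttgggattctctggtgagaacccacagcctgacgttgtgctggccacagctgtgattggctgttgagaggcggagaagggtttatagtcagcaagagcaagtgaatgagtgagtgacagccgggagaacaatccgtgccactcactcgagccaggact
The match begins at position −128 relative to the start in Spp1, at −132 in Bglap and at −164 in Dmp1. The Ibsp window holds no ACCACA or TGTGGT. Neither does the other Spp1 window (chr5:104435942-104436241) nor the other Dmp1 window (chr5:104197325-104197624), which are not shown. The fourth window with a match belongs to Runx2 (chr17:44814578-44814877, minus strand), with 3 matches. A match describes the letters of the window and is not evidence of binding.

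Bglap and Bglap2 both encode osteocalcin, the bone hormone and matrix protein, and lie beside each other on chromosome 3. Their coding sequences (GENCODE vM21, GRCm38) have 288 bases each and differ at 4 of them (98.6% identity), which are capitalised.
Bglap coding sequence: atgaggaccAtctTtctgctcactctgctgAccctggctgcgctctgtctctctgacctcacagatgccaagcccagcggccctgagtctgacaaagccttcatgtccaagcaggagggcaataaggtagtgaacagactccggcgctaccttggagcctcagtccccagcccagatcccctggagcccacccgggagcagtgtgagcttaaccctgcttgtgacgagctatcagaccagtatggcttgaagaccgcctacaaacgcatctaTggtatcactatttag
Bglap2 coding sequence: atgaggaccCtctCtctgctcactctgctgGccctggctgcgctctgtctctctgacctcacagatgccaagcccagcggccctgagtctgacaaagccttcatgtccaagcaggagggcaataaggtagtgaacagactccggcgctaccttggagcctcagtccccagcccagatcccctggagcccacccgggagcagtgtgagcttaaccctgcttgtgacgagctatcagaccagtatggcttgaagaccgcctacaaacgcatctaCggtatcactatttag
The third copy, Bglap3, differs from Bglap at 13 of the 288 bases and from Bglap2 at 9. Reads can be split between such near-identical copies, so the separate values of Bglap, Bglap2 and Bglap3 are uncertain.

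In bulk MSC, 1 of the 10 genes differed between the groups: Phex fell 3.74-fold with Py230 tumours. Spp1 did not pass the test, and none of the 10 was called higher, although DESeq2 called Dmp1. At an unadjusted p under 0.05 there were 3 of the 10, Phex, Alpl and Dmp1, beside 2636 of all 16317 genes (16.2%). Over all genes tested, 2.74% were called lower and 1.99% higher (edgeR's quasi-likelihood test, adjusted p under 0.05). The median log2 change of the 10 genes was −0.04, beside 0.04 for all genes. In bulk RNA, fewer cells of a type and less RNA per cell cannot be told apart.

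Phex (ENSMUSG00000057457, chromosome X, 157162075 to 157415312, minus strand) encodes a membrane endopeptidase whose loss causes renal phosphate wasting and poor bone mineralisation. Its level was 151, 149, 144 and 135 TMM-normalised CPM in tumour-free libraries 1 to 4, and 17.5, 34.7, 55.4 and 45.5 CPM in Py230 libraries 1 to 4. The groups did not overlap, and library Py230 1 was the lowest. The mean went from 145 ± 7.41 to 38.3 ± 16.3 CPM (SD, n = 4 per group), a log2 change of −1.90 (SE 0.27, edgeR adjusted p = 0.00458). It was the only member of 10 whose groups did not overlap, where 5.61% of all genes tested lay without overlap lower and 5.36% higher with Py230 tumours. The call held in all 12 alternative fits, with log2 changes from −2.19 to −1.69.

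Alpl (ENSMUSG00000028766, chromosome 4, 137741733 to 137796384, minus strand), tissue-nonspecific alkaline phosphatase, was at 175, 85.2, 183 and 102 CPM in the tumour-free libraries and at 39.7, 55.8, 61.9 and 115 CPM with Py230 tumours. The 3 lowest values were all from Py230 libraries, but Py230 4 lay above tumour-free 2 and 4. The log2 change was −1.01 (SE 0.39), with an edgeR adjusted p of 0.252.

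Spp1 (ENSMUSG00000029304, chromosome 5, 104435118 to 104441050, plus strand) was at 230.2, 229, 125 and 138 CPM in the tumour-free libraries and at 266, 191, 179 and 285 CPM with Py230 tumours. The tumour-free libraries fell into a higher and a lower pair, and the Py230 values overlapped the higher pair. Means were 181 ± 56.7 and 230.1 ± 52.9 CPM (SD, n = 4 per group), a log2 change of 0.35 (SE 0.23, edgeR adjusted p = 0.551).

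Its neighbours on chromosome 5 encode the related glycoproteins Ibsp (ENSMUSG00000029306, 104299171 to 104311469, plus strand) and Dmp1 (ENSMUSG00000029307, 104202613 to 104214102, plus strand), an osteocyte matrix protein. Ibsp was at 2703, 2768, 2236 and 1699 CPM in the tumour-free libraries and at 626, 1419, 2025 and 1777 CPM with Py230 tumours. Its groups overlapped, and the lowest value was again Py230 1 (log2 change −0.69, SE 0.33, edgeR adjusted p = 0.363). Dmp1 was at 8.57, 7.32, 5.55 and 5.96 CPM in the tumour-free libraries and at 6.25, 18.7, 33.6 and 14.5 CPM with Py230 tumours. Here 3 of 4 Py230 libraries lay above every tumour-free library, and Py230 1 lay among them (log2 change 1.45, SE 0.41, edgeR adjusted p = 0.0780). DESeq2 called Dmp1 (adjusted p = 0.0118), as did edgeR with no filter on low counts (8.57e-06) and edgeR without Py230 1 (0.0039), and over all 12 alternatives its adjusted p ran from 8.57e-06 to 0.263.

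The osteocalcin genes were low in bulk and scattered within each group. Bglap (ENSMUSG00000074483, chromosome 3, 88383501 to 88384464, minus strand) was at 5.58, 4.16, 11.5 and 1.60 CPM in the tumour-free libraries and at 0, 8.92, 15.5 and 7.03 CPM with Py230 tumours. The 0 stands for no read in Py230 1, where 3 counts would be 0.675 CPM. Bglap2 (ENSMUSG00000074486, chromosome 3, 88377736 to 88378699, minus strand) was at 10.6, 6.32, 16.7 and 5.23 CPM against 0.216, 27.9, 54.5 and 4.08 CPM. Both genes had their lowest and their highest value in a Py230 library, 1 and 3. Neither passed the edgeR test, with log2 changes of 0.50 (SE 0.89, adjusted p = 0.876) and 1.21 (SE 1.07, adjusted p = 0.696).

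The transcription factors Runx2 (ENSMUSG00000039153, chromosome 17, 44495987 to 44814797, minus strand) and Sp7 (ENSMUSG00000060284, chromosome 15, 102356606 to 102367182, minus strand) overlapped between groups. Runx2 was at 500.1, 412, 448 and 450.0 CPM in the tumour-free libraries and at 380.1, 505, 498 and 453 CPM with Py230 tumours (log2 change 0.02, edgeR adjusted p = 0.962). Sp7 was at 33.4, 22.5, 36.6 and 23.7 CPM against 11.6, 20.3, 30.8 and 28.6 CPM (log2 change −0.34, adjusted p = 0.623). Pth1r (ENSMUSG00000032492, chromosome 9, 110722085 to 110747145, minus strand), the receptor of parathyroid hormone, was at 102, 81.5, 79.4 and 67.7 CPM against 63.0, 80.3, 89.3 and 74.8 CPM (log2 change −0.10, adjusted p = 0.817). The sign of the small Runx2 and Pth1r changes, and of that of Bglap, turned in some alternatives.

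Levels of different genes were compared per kilobase of exon. On this scale Ibsp was the most abundant of the 10 in tumour-free MSC, at 1137 CPM per kb, followed by Spp1 at 110 CPM per kb and Runx2 at 51.2 CPM per kb. Dmp1 was the least abundant, at 2.48 CPM per kb. With Py230 tumours Ibsp stood at 707 CPM per kb and Spp1 at 140 CPM per kb, and Phex had gone from 23.0 to 6.08 CPM per kb.

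**Figure D1:**
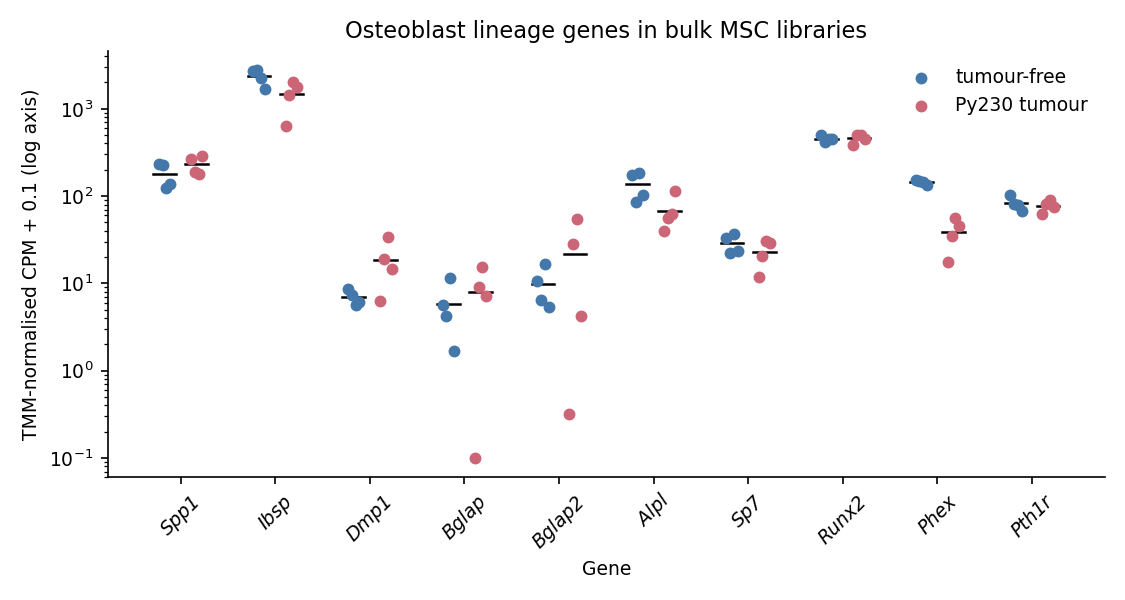
TMM-normalised CPM plus 0.1 on a log axis for the 10 genes in the 8 bulk MSC libraries, with 1 dot per library and a black line at the group mean (n = 4 per group). The groups are apart for Phex (135 to 151 against 17.5 to 55.4 CPM) and overlap for the other 9 genes, and the osteocalcin genes spread most within a group.

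None of the relations of Spp1 to the 9 osteoblast genes passed the test between bulk libraries. Over the 8 libraries, Pearson's r of log2(CPM + 1) with Spp1 was −0.50 for Phex (rho −0.29), −0.49 for Bglap2 (rho −0.60), −0.42 for Sp7 (rho −0.38), −0.33 for Alpl (rho −0.24), −0.31 for Bglap (rho −0.40), −0.28 for Ibsp (rho −0.14), −0.27 for Runx2 (rho −0.05), −0.01 for Pth1r (rho −0.10) and 0.17 for Dmp1 (rho 0.33). None of the 9 relations passed an exact two-sided permutation test, the smallest unadjusted p being 0.204 for Pearson's r (Phex) and 0.132 for rho (Bglap2), and 0.683 and 0.873 after Benjamini-Hochberg adjustment over the 9. Without the 2 libraries farthest from the Spp1 median, tumour-free 3 and 4, r became −0.16 for Phex, −0.89 for Bglap2, −0.29 for Sp7, 0.22 for Alpl, −0.63 for Bglap, −0.30 for Ibsp, −0.64 for Runx2, −0.52 for Pth1r and −0.67 for Dmp1. The r of deviations from the group means was 0.02 for Ibsp, −0.24 for Dmp1, −0.37 for Bglap, −0.56 for Bglap2, −0.00057 for Alpl, −0.28 for Sp7, −0.34 for Runx2, −0.19 for Phex and 0.12 for Pth1r. For 6 of the 9 genes the sign differed between the groups, and 4 libraries are too few for a relation within a group. Relations of moderate size cannot be detected with 8 libraries.

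Other osteoblast genes were read from lists that overlap in function with the 10. Of 20 further matrix and mineralisation genes, 15 were tested, 2 rose and 1 fell, with a median log2 change of 0.01. The collagenase Mmp13 rose by 0.67 on the log2 scale, with means of 1024 ± 111 and 1624 ± 171 CPM (SD, 4 libraries each, edgeR adjusted p = 0.00446). Enpp1, which makes the mineralisation inhibitor pyrophosphate, rose by 0.57 on the log2 scale, and the proteoglycan Omd (osteomodulin) fell by 1.57. Of 10 other osteoblast transcription factors, 9 were tested and 1, Tead2, rose (log2 change 0.73). Of 10 osteocyte genes, 7 were tested and 1, the choline transporter-like gene Slc44a5, rose (log2 change 2.36).

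Among 19 osteoblast signalling genes tested, 5 fell and 2 rose, and the median log2 change was −0.33. The Wnt receptor Fzd4 (−0.71), the prostaglandin receptor Ptger4 (−0.71), the fibroblast growth factor receptors Fgfr2 (−0.64) and Fgfr3 (−0.55) and the TGF-β co-receptor Tgfbr3 (−0.46) fell, whereas Fgfr1 (0.80) and the sclerostin-binding Wnt co-receptor Lrp4 (0.90) rose. Of the 10 receptor chains that bind osteopontin, 2 rose and 1 fell. The integrin chain Itgb5 was at 101.3, 94.5, 93.0 and 84.6 CPM in tumour-free libraries and at 187, 180.3, 179.7 and 190.1 CPM with Py230 tumours, without overlap (log2 change 0.98, SE 0.09, edgeR adjusted p = 6.79e-05). Itgb3, whose product pairs with the alpha-v chain, rose by 1.42 on the log2 scale, from 31.7 ± 8.80 to 84.0 ± 18.5 CPM, and Itga8 fell by 1.13.

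Markers of other marrow cells moved with these groups. LepR+ stromal markers fell for 5 of 10 genes (Cxcl12, Adipoq, Lpl, Ebf3 and Chrdl1), and their summed level was 31138 to 35576 CPM in tumour-free and 16797 to 20976 CPM in Py230 libraries. Summed tendon and ligament markers were at 49.4 to 134.3 and 145 to 478 CPM with none of 8 called, macrophage markers at 54.1 to 70.1 and 77.5 to 115 CPM with 1 called (Csf1r), osteoclast markers at 183 to 193 and 220.3 to 310.5 CPM with 1 called (Itgb3), sinusoidal endothelial markers at 44.4 to 65.5 and 66.3 to 133 CPM with Stab1 and Flt4 called, and arterial markers at 63.5 to 83.1 and 75.7 to 157 CPM with Gja5 called. Summed osteolineage markers, a list that includes members, were at 3417 to 7177 CPM in tumour-free libraries. With Py230 tumours they were at 1245, 6534, 12327 and 5114 CPM in libraries 1 to 4. Acan and Sox9 fell among 9 chondrocyte markers tested, and the near-identical heat shock genes Hspa1a and Hspa1b rose among 16 immediate-early and stress genes. The part of these shifts in the results for Phex, Dmp1 and the other members was not tested.

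In the stromal single-cell data, 3 of the 6 deposited clusters held nearly all Spp1. Clusters were named from markers. Cluster 0 was LepR+ mesenchymal-like (977 WT and 2242 PyMT cells), cluster 2 fibroblast-like (559 and 346) and cluster 3 sinusoidal endothelial-like (55 and 120). Cluster 4 carried arterial and capillary markers in shallow cells (95 and 61), and cluster 1 (441 and 367) was led by Angptl7, Chad, Msmp and Fmod, with all 10 tendon and ligament markers among its top genes. Cluster 5 (63 and 55 cells) was osteolineage-like, with 11 of 12 osteolineage markers, and was led by Bglap, Car3, Bglap2, Cpz and Col11a2. Its name rests partly on the genes described here, so their abundance in it is a description of the cluster and not a finding.

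Spp1 was densest in cluster 5. In the WT library its level there was 12931 CPM, followed by 1085 CPM in cluster 0, 970.0 in cluster 1, 94.8 in cluster 3, 77.1 in cluster 4 and 17.9 in cluster 2. The counting intervals of clusters 3 and 4 overlapped, and those of the other neighbours in this order did not. In the PyMT library the order was cluster 5 at 21202 CPM, cluster 1 at 3444, cluster 0 at 700.1, cluster 2 at 173, cluster 4 at 39.6 and cluster 3 at 22.1 CPM, and again only the intervals of clusters 3 and 4 overlapped. Cluster 5 held 61.0% of all WT Spp1 UMIs and 49.7% of all PyMT Spp1 UMIs, cluster 0 held 25.2% and 26.6%, and cluster 1 held 13.3% and 22.4%. Intervals here and in what follows are exact 95% intervals for counting error only, since there was 1 library per genotype and therefore no test between genotypes.

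Spp1 RNA was concentrated in few cells. A UMI of Spp1 was found in 605 of 2190 WT cells (27.6%) and in 891 of 3191 PyMT cells (27.9%), 15956 and 27612 UMIs in all. The 10 cells with the most Spp1 held 58.2% of these UMIs in the WT and 47.0% in the PyMT library, and the 24 WT and 42 PyMT cells with at least 100 Spp1 UMIs held 73.3% and 78.5%. The highest WT cell, in cluster 5, had 2368 Spp1 UMIs, which was 29.0% of its 8170 UMIs. It also had 206 Ibsp, 90 Dmp1 and 24 Bglap UMIs. In the PyMT library the highest cell, also in cluster 5, had 1587 Spp1 and 514 Ibsp UMIs with 2 of Bglap, and a cell of cluster 1 had 1544 Spp1 UMIs (41.0% of its total) with 3 of Ibsp and none of Bglap.

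The cells with at least 100 Spp1 UMIs were spread over clusters. In the WT library 14 lay in cluster 5, 6 in cluster 1 and 4 in cluster 0, and in the PyMT library 18, 10 and 13, with 1 more in cluster 2. The macrophage gene Lyz2 had at most 1 UMI in each of these cells. In cluster 5 cells with at least 10 Spp1 UMIs, none of 12 macrophage markers had a UMI in the WT library (24 cells) and 2 of 12 had one in the PyMT library (36 cells, 5.75 CPM summed). Outside cluster 5 the 12 macrophage markers were low but present. In cluster 0 they summed to 77.4 (WT) and 55.1 CPM (PyMT) in cells with at least 10 Spp1 UMIs, with UMIs of 5 of 12 genes each, against 40.6 (6 of 12) and 50.3 CPM (8 of 12) in cells without Spp1. In cluster 1 the sums were 21.4 and 28.3 CPM against 9.21 and 14.3 CPM, and their part in the Spp1 values was not tested. Osteoclast markers summed to 273 and 377 CPM in the cluster 5 cells with at least 10 Spp1 UMIs and were led by the protease Ctsk, against 185 and 194 CPM in cluster 5 cells without Spp1.

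To compare shares of cells at equal depth, each cell was thinned to 2000 UMIs, and shallower cells were left out. Of WT cluster 0 cells, 313 of 835 (37.5%) then held Spp1, against 469 of 2076 (22.6%) in the PyMT library, and before thinning the shares were 42.2% and 31.8%. In cluster 5 the shares were 28 of 63 (44.4%) and 35 of 53 (66.0%), and 55.6% and 78.2% before thinning. Cluster 1 held it in 18.8% and 17.0% of cells. Sinusoidal cells of cluster 3, taken as a guide to free RNA, had Spp1 in 5 of 38 (13.2%) and 5 of 92 (5.43%). Fibroblast-like cluster 2 had it in 2.73% and 5.59%. In the WT library Spp1 was at 94.8 CPM (54.2 to 154) in cluster 3 and at 17.9 CPM (13.6 to 23.1) in cluster 2. The level of free RNA is therefore uncertain, and shares no higher than these are read as background. Left out as too shallow were 142 WT and 166 PyMT cells of cluster 0, 17 and 28 of cluster 3 and 0 and 2 of cluster 5.

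The other members divided into 3 patterns of location. Osteocalcin RNA was nearly confined to cluster 5, with 98.4% of WT and 98.5% of PyMT Bglap UMIs and 96.9% and 95.8% of Bglap2 UMIs. Dmp1 was there too in the WT library (93.5% of 199 UMIs), but in the PyMT library cluster 5 held 65.1% of 370 UMIs and cluster 1 held 26.5%. Ibsp, Runx2 and Phex were mostly in the far larger cluster 0, which held 70.6% and 81.3% of Ibsp, 76.1% and 90.1% of Runx2, and 79.0% and 77.2% of Phex UMIs in the WT and PyMT libraries. Spp1, Alpl, Sp7 and Pth1r were shared out between clusters 5, 0 and, to a lesser extent, 1. Cluster 5 held 51.3% and 47.2% of Alpl, 55.9% and 37.8% of Sp7, and 45.2% and 25.8% of Pth1r, and cluster 1 held 12.7% and 15.8% of Alpl, 2.08% and 7.08% of Sp7, and 11.5% and 12.01% of Pth1r.

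**Figure D2:**
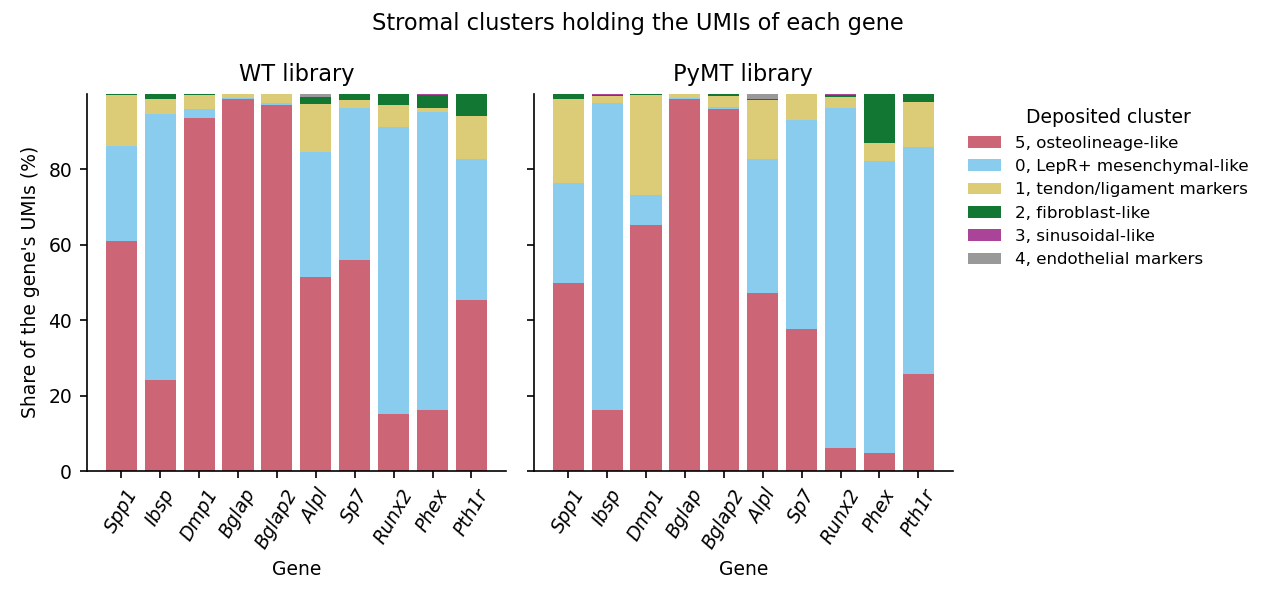
Share of each gene's UMIs in percent that lay in each deposited cluster, in the WT library on the left and the PyMT library on the right. Bglap and Bglap2 lie almost wholly in cluster 5 (at least 95.8%), Ibsp, Runx2 and Phex mostly in cluster 0, and Spp1 is divided between clusters 5, 0 and 1.

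Over the 12 profiles of cluster and library, the genes most like Spp1 by Pearson's r of log2(CPM + 1) were Ptprz1 (0.95), Pth1r (0.94), Col11a1 (0.94), Dmp1, Ankmy1, Tenm4 and Fat3 (each 0.91), Sp7 (0.90), and Lrp4 and Dlx6 (each 0.89), among 9822 genes with at least 200 UMIs. The profiles share libraries and depth, so these values are descriptions. Among the members, Pth1r ranked 2, Dmp1 4, Sp7 8, Bglap 12, Bglap2 15, Ibsp 71, Runx2 95, Alpl 107 and Phex 303 in likeness to Spp1. 

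Inside the osteolineage-like cluster 5, cells with much Spp1 had little osteocalcin. At 2000 UMIs per cell, Spearman's rho between Spp1 and Bglap was −0.62 over 63 WT cells and −0.68 over 53 PyMT cells, and between Spp1 and Bglap2 −0.52 and −0.56, whereas Bglap and Bglap2 followed each other (0.93 and 0.88). The sum to 2000 UMIs in each cell ties abundant genes to each other, and all cells of a library share its preparation. At least 10 UMIs of both Spp1 and Bglap were found in 5 of 63 WT and 1 of 53 PyMT cells, of Spp1 alone in 14 and 25 cells, of Bglap alone in 30 and 19, and of neither in 14 and 8.

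Median values show the size of this contrast. In WT cells with at least 10 Spp1 UMIs per 2000 (19 cells, median 76 Spp1 UMIs) the median Bglap count was 1 and in the other 44 cells 32.5, and for PyMT cells (26 with a median of 88.5 Spp1 UMIs, and 27 others) it was 0.5 and 31. Medians of Bglap2 were 1 and 17.5 in WT and 1 and 8 in PyMT cells. The fibrillar collagen gene Col1a1, the main matrix product of osteoblasts, had medians of 20 and 215 in WT and 9.5 and 255 in PyMT cells. Ibsp went the other way, with medians of 38 and 14 in WT and 31.5 and 9 in PyMT cells. Before thinning, LepR+ markers summed to 1093 (WT) and 1485 CPM (PyMT) in cluster 5 cells with at least 10 Spp1 UMIs. In those without Spp1 they summed to 276 and 222 CPM. The 5 osteolineage markers that are not members, led by Col1a1, summed to 44595 and 65814 CPM against 135346 and 168887 CPM. The part of these differences in the osteocalcin contrast was not tested.

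**Figure D3:**
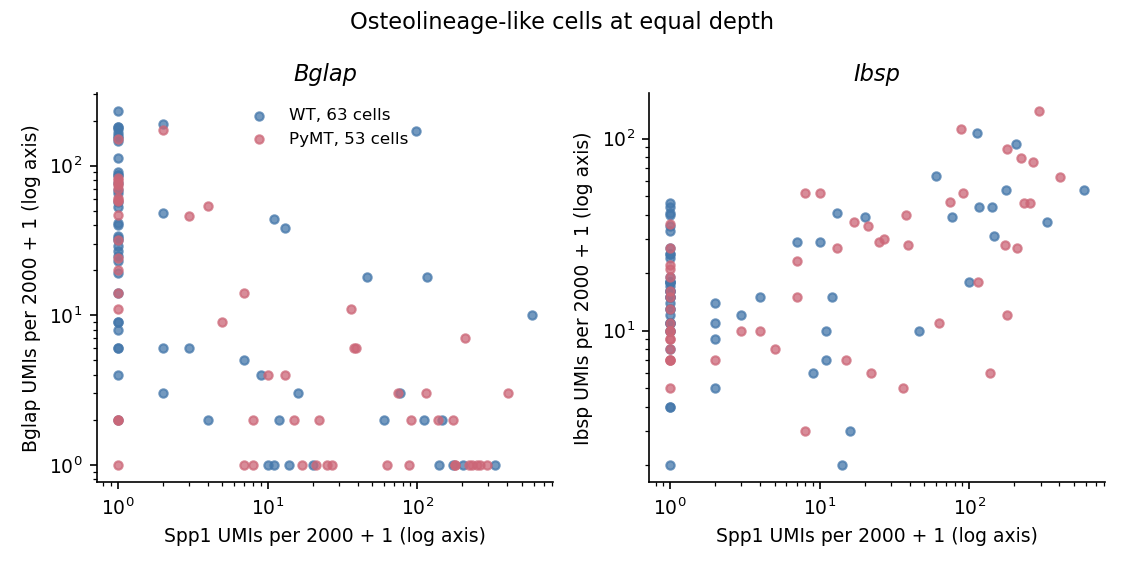
UMIs per 2000 in each cell of cluster 5, plus 1 on log axes, with Spp1 on the x axis and Bglap (left) or Ibsp (right) on the y axis, 1 dot per cell, for 63 WT and 53 PyMT cells. Cells rich in Spp1 lie low for Bglap (rho −0.62 and −0.68) and high for Ibsp (rho 0.29 and 0.56).

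Other members were compared as levels in cells with and without any Spp1 UMI at equal depth. In cluster 5, Ibsp was 1.62-fold (1.46 to 1.80) higher with Spp1 in the WT and 2.72-fold (2.37 to 3.14) higher in the PyMT library, and Runx2 was 1.82-fold (1.02 to 3.28) and 3.49-fold (1.72 to 7.98) higher. Dmp1 was 9.75-fold (3.84 to 31.7) higher in the WT library, on 39 against 5 UMIs, but 25 of the 39 came from 1 cell, without which the ratio was 3.63 (1.24 to 12.9). Its PyMT ratio of 1.31 had an interval that included 1. Bglap stood at 0.289 and 0.203 of the level without Spp1, and Phex at 0.298 in the WT library. Of the 711 genes measured in each library, 13.8% and 25.9% were at least 2-fold higher in cells with Spp1, with median ratios of 1.15 and 1.23. The share of genes lower with Spp1 was not counted. The Alpl ratios were 1.62 (1.12 to 2.36) and 1.65 (1.02 to 2.77), but the PyMT ratio was 0.892 in another random thinning. The intervals of both Alpl ratios and of the WT Runx2 ratio included the median of all genes. The WT Bglap ratio ran down to 0.153 in the alternatives, and the PyMT ratio was 0.102 without the cell holding most of its UMIs. Leaving out such a cell was an alternative chosen after the data were seen.

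In the LepR+ mesenchymal-like cluster 0, Alpl was higher in cells with Spp1 in both libraries, Bglap and Bglap2 in the WT library, and Sp7, Phex and Pth1r in the PyMT library, whereas neither Ibsp nor Runx2 was higher. In the WT library Bglap was 8.89-fold (3.67 to 26.0) higher in cells with Spp1, on 32 against 6 UMIs (5.30-fold, 2.03 to 16.2, without the cell with most of them), Bglap2 5.84-fold and Alpl 1.85-fold (1.30 to 2.64, and 2.85-fold when thinned to 1500 UMIs). In the PyMT library Alpl was 9.17-fold (6.01 to 14.3) and Sp7 4.05-fold (2.48 to 6.64) higher, with Bglap and Bglap2 too rare for a ratio. Sp7 had a WT ratio of 1.73 (0.982 to 3.05), Phex ratios of 0.850 (0.664 to 1.08) and 1.40 (1.09 to 1.79), and Pth1r ratios of 1.25 (0.880 to 1.77) and 1.44 (1.12 to 1.84). Among all genes, 2.16% in the WT and 1.90% in the PyMT library were at least 2-fold higher, with medians of 1.01 and 1.02. Runx2 had ratios of 1.03 and 1.08, and Ibsp, found in 91.0% of WT and 86.1% of PyMT cluster 0 cells at this depth, had ratios of 0.822 (0.789 to 0.856) and 1.01.

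The share of cluster 0 cells with Alpl was higher the more Spp1 they held. It was 8.05% of WT cells with no Spp1 UMI, 11.6% with 1 to 4 and 20.8% with 5 or more, and 1.68%, 6.16% and 18.8% of PyMT cells. For Sp7 the PyMT shares were 1.87%, 5.60% and 13.4%, and the WT shares were 4.98%, 8.30% and 8.33%. The 83 WT and 124 PyMT cells of cluster 0 with at least 10 Spp1 UMIs before thinning kept the LepR+ profile, with summed LepR+ markers of 30548 and 28133 CPM against 36074 and 31195 CPM in cells without Spp1.

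**Figure D4:**
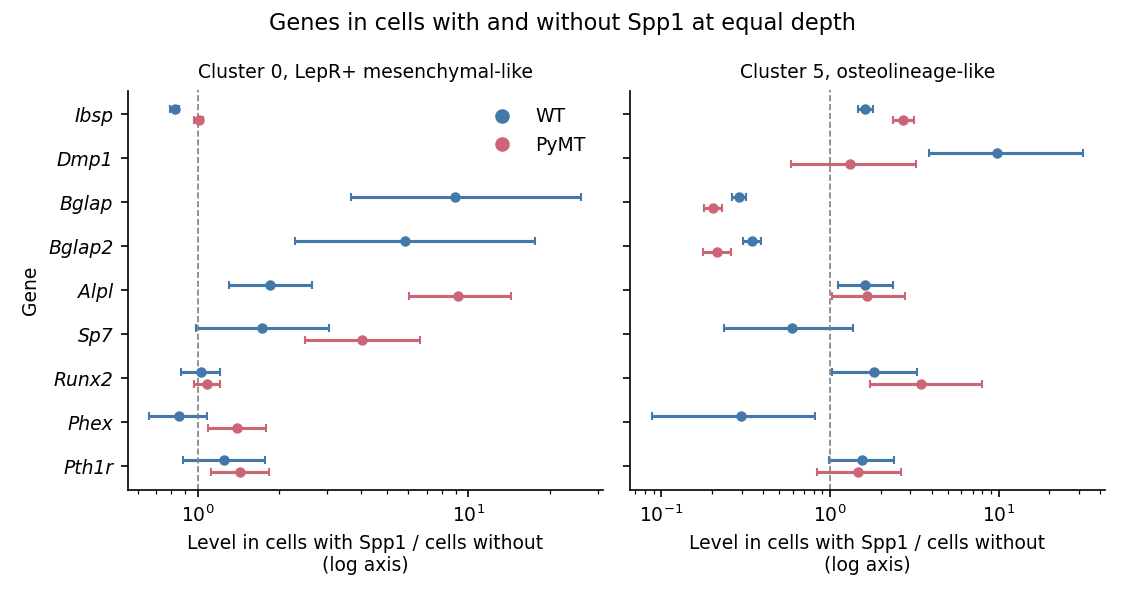
Level of each gene in cells with Spp1 divided by the level in cells without it at 2000 UMIs per cell, on a log axis with exact 95% intervals for counting error, for WT and PyMT cells of cluster 0 (left) and cluster 5 (right). Genes with under 20 UMIs in a comparison have no point. In cluster 0 the ratios of Alpl are 1.85 and 9.17 and in cluster 5 those of Bglap are 0.289 and 0.203.

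In cluster 1, cells with Spp1 at equal depth had 8.74-fold (7.24 to 10.6) more Ibsp in the WT and 3.58-fold (2.79 to 4.58) more in the PyMT library. Ibsp was found in 10.1% and 15.2% of all cluster 1 cells at this depth, no more than the 15.8% and 17.4% of sinusoidal cluster 3. Its levels were 570 and 490 CPM in cluster 1 and 243 and 373 CPM in cluster 3. The part of free RNA in the cluster 1 ratios was not tested. Runx2 was 2.57-fold and 3.60-fold and Bglap 3.48-fold and 3.79-fold higher, where 4.58% and 5.45% of all genes were at least 2-fold higher. Of the other members, Alpl, Bglap2 and Pth1r had a ratio in both libraries, and none of these had an interval above 1 in both. Alpl had ratios of 2.80 (1.56 to 4.94) in WT and 0.796 (0.326 to 1.70) in PyMT cells, and Bglap2 of 3.17 (2.23 to 4.48) and 1.35 (0.531 to 3.02). The Pth1r ratios of 1.67 and 1.70 had intervals that included 1. In another random thinning the PyMT ratio of Bglap was 1.04, and without the cell holding most of its UMIs 1.84 (0.794 to 3.92). Without such a cell Ibsp was at 6.13 and 5.47. The cells behind these values were of several kinds. At least 5 UMIs of the osteocyte genes Dmp1 and Mepe together were found in 1 WT and 3 PyMT cells, all with at least 10 Spp1 UMIs, and these held 100% and 95.9% of the cluster's Dmp1 and 10.6% and 16.9% of its Spp1. Such cells were not particular to cluster 1. Cluster 5 had 10 in the WT and 9 in the PyMT library, of which 5 and 8 had Spp1, and they held 59.7% and 24.5% of the Spp1 of cluster 5. Among the 6 WT cells of cluster 1 with at least 100 Spp1 UMIs, 4 had no Ibsp UMI and 14 to 54 UMIs of Chad, a cartilage and tendon matrix gene. A PyMT cell with 334 Spp1 UMIs and no Ibsp had 211 UMIs of Col10a1, the collagen of hypertrophic chondrocytes. In the 28 PyMT cells of cluster 1 with at least 10 Spp1 UMIs, tendon and ligament markers summed to 8058 CPM, against 32618 CPM in the cells without Spp1. In the WT library the sums were 28878 CPM in 42 such cells and 29103 CPM without Spp1.

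Between the 2 stromal libraries, Spp1 differed in opposite directions by cluster. It was lower in the PyMT library in cluster 0, at 1085 and 700.1 CPM (log2 ratio −0.63, −0.69 to −0.58), and higher in cluster 5, at 12931 and 21202 CPM (0.71, 0.68 to 0.75), and in cluster 1, at 970.0 and 3444 CPM (1.83, 1.76 to 1.90). A few cells set these values. In cluster 1 of the PyMT library 10 cells held 5460 of 6182 Spp1 UMIs, in cluster 2, where the level was 17.9 and 173 CPM, 1 PyMT cell held 284 of 359, and without the 6 WT and 2 PyMT cells marked as doublets in cluster 0 the ratio there was −0.37. Without the cell with the most Spp1 of each cluster the ratios were −0.91 in cluster 0, 1.42 in cluster 1 and 1.10 in cluster 5. In cluster 5, cells with at least 100 Spp1 UMIs were 14 of 63 and 18 of 55, and cells with none were 28 and 12.

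In cluster 0 most of the osteoblast genes were lower in the PyMT library, 4 of the 10 by at least 2-fold, where 2.50% of 12617 genes were at least 2-fold lower. Osteocalcin was lowest relative to WT, with 115 and 37 Bglap UMIs (31.1 and 3.53 CPM, log2 ratio −3.14, −3.71 to −2.59) and a Bglap2 ratio of −2.78. One WT cell held 47 of the 115 Bglap and 19 of the 68 Bglap2 UMIs, and without the cell with the most UMIs of the gene the ratios were −2.38 (−2.999 to −1.78) and −2.31 (−3.03 to −1.61). In the sinusoidal cells of cluster 3, an uncertain guide to free RNA, Bglap was at 11.9 (1.44 to 42.8) and 2.21 CPM (0.0559 to 12.3). In cluster 2 it was at 3.64 (1.88 to 6.36) and 8.67 CPM (5.14 to 13.7). Alpl stood at 88.0 and 33.0 CPM (−1.41, −1.64 to −1.19), and Phex, the gene that fell in bulk MSC, at 200.3 and 83.9 CPM (−1.26, −1.40 to −1.11). Sp7 (−0.81) and Ibsp (−0.79, 6221 and 3593 CPM) were lower by less, the interval of Pth1r included 0, and Runx2 was higher, at 354 and 424 CPM (0.26, 0.17 to 0.35). Dmp1 was 2.12-fold higher on 5 and 30 UMIs, with an interval that included 0 on the log2 scale, where 4.57% of genes were at least 2-fold higher. The median log2 ratio of the 10 was −0.80, beside 0.08 for all genes. Phex went the other way in clusters 1 and 2. It stood at 5.03 and 30.6 CPM in cluster 1 (2.61, 1.66 to 3.69) and at 9.72 and 70.4 CPM in cluster 2 (2.86, 2.30 to 3.46).

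In cluster 5 the osteocalcin genes were again lower in the PyMT library, at 34411 and 18396 CPM for Bglap (−0.90, −0.93 to −0.87) and 15646 and 7774 CPM for Bglap2 (−1.01), and Phex stood at 200.6 and 85.0 CPM (−1.24, −1.71 to −0.79). Bglap2 and Phex passed 2-fold, where 2.20% of 6174 genes were at least 2-fold lower and 8.67% higher. Ibsp (0.15), Runx2 (0.41) and Dmp1 (0.59) were above 0, and the intervals of Alpl, Sp7 and Pth1r included 0. The median log2 ratio of all genes in cluster 5 was 0.22. The Ibsp interval (0.10 to 0.19) lay below this median, that of Runx2 (0.17 to 0.66) included it and that of Dmp1 (0.31 to 0.88) lay above it. Without the cell with the most UMIs of the gene, Dmp1 was at 1.53, Ibsp at 0.04 with an interval that included 0, and Bglap2 at −0.90, short of 2-fold. With each cell weighted equally the Dmp1 ratio was −0.02, and with cells thinned to 1500 UMIs that of Phex was −0.09 and that of Sp7 −1.47. In cluster 1, 5 of the 10 genes were at least 2-fold higher (Dmp1, Phex, Sp7, Spp1 and Pth1r), where 5.46% of 10207 genes were, and Dmp1 there rests on the few cells with Mepe described above. Without the cell with the most UMIs of the gene the ratio of Dmp1 was 2.61 and not 4.09, and that of Pth1r was 0.65 and not 1.02.

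**Figure D5:**
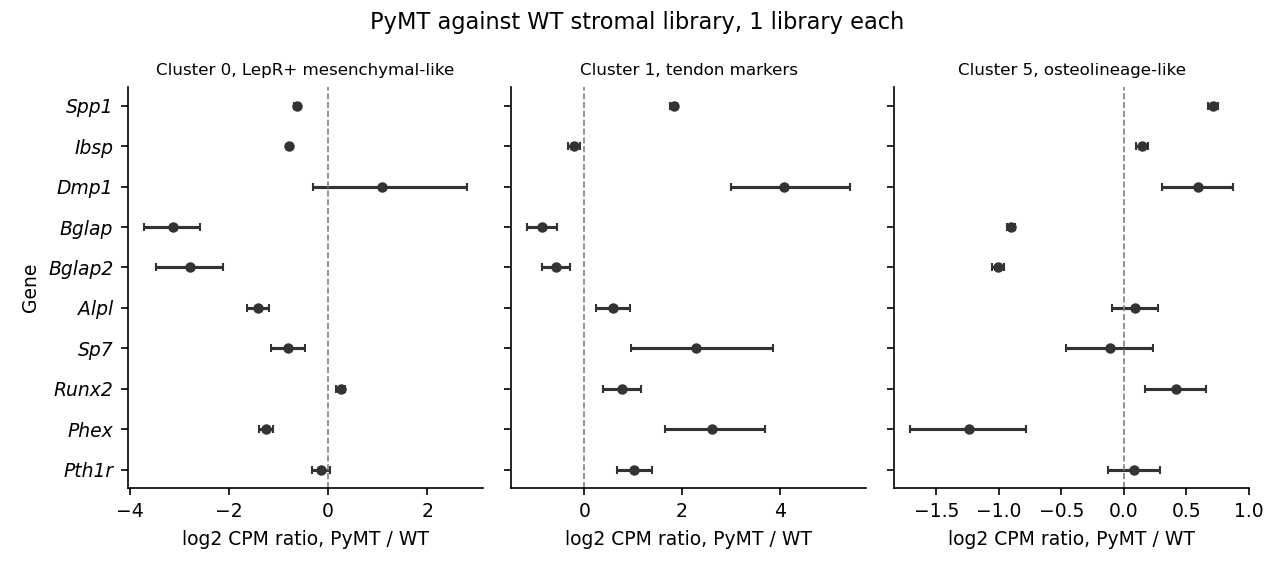
Log2 ratio of CPM in the PyMT over the WT library for each gene in clusters 0, 1 and 5, with exact 95% intervals for counting error and a dashed line at 0; each panel has its own x axis. Spp1 is below 0 in cluster 0 (−0.63) and above 0 in clusters 1 (1.83) and 5 (0.71), while Bglap and Bglap2 are below 0 in all 3.

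Other osteoblast gene lists of cluster 0 had medians nearer to that of all genes. The median log2 ratio was 0.13 for 8 other transcription factors measured (at least 20 UMIs over both libraries), −0.20 for 13 matrix and mineralisation genes and 0.15 for 18 signalling genes. Mmp13, which rose in bulk MSC, stood at 673 and 1625 CPM (log2 ratio 1.27). Of 3 genes chosen after their values were seen, Tnfsf11, which encodes the osteoclast factor RANKL, was at 122 and 331 CPM (1.44). The carbonic anhydrase Car3 (−1.58) and the potassium channel Kcnk2 (−1.61) were lower. The osteopontin receptor chains had a median of 0.23 over 8 measured, with 6 above 0.

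Stress genes moved with the same libraries. All 16 immediate-early and dissociation stress genes were above 0 in cluster 0 (median log2 ratio 0.87, 33504 and 59334 CPM summed) and in cluster 1 (1.12), and 14 of 16 in cluster 5 (1.09). Summed erythroid markers in cluster 0 were at 367 (WT) and 82.1 CPM (PyMT), and all 4 measured were lower. In cluster 1, all 10 chondrocyte markers measured were above 0 (median 4.07, 363 and 816 CPM summed). Their part in the differences of the osteoblast genes was not tested.

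In HSPC, whose numbers osteopontin is known to restrain in the marrow niche, Spp1 RNA was rare and did not pass the test between genotypes. It was at 4.44 and 4.55 CPM in the WT mice and 4.69 and 4.96 CPM in the PyMT mice (log2 change 0.10, SE 0.20, edgeR adjusted p = 0.793), without overlap, with a UMI in 2.12% to 3.21% of cells. Pth1r was at 1.45 to 2.03 CPM in all 4 mice (adjusted p = 0.668). Runx2 was at 33.7 and 40.7 CPM in WT and 25.9 and 28.3 CPM in PyMT mice, without overlap (log2 change −0.45, SE 0.12, edgeR adjusted p = 0.0797). Over its 6 alternatives the adjusted p of Runx2 ran from 0.00996 to 0.552, and it passed without WT 1 and without PyMT 2. None of the 3 members was called, where 0.850% of 11759 genes were called higher and 0.553% lower, and 2643 genes (22.5%) had an unadjusted p under 0.05. With 2 mice per genotype, 29.2% of genes lay without overlap lower and 26.7% higher in PyMT mice, so that the lack of overlap of Spp1 and Runx2 was common. Of the members, 1 (Runx2) had an unadjusted p under 0.05, and DESeq2 called none of the 3.

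The osteopontin receptor chains in HSPC were mostly a little lower in PyMT mice, and none of the 9 in the table passed the edgeR test, although 5 of 9 had an unadjusted p under 0.05. The hyaluronan and osteopontin receptor Cd44 was at 65.4 and 67.3 CPM in WT and 53.2 and 49.3 CPM in PyMT mice (log2 change −0.37, SE 0.10, adjusted p = 0.0740). The integrin chain Itga4, part of the homing receptor VLA-4, was at 64.5 and 63.5 against 52.2 and 48.4 CPM (−0.35, SE 0.10, adjusted p = 0.0854). In all, 6 of the 9 chains lay without overlap lower (Cd44, Itgav, Itga4, Itga9, Itgb1 and Itgb3) and 2 higher (Itgb5 and Itgb6), beside the shares of all genes given above. Itgb1, the most abundant chain, was at 139.6 and 143 against 130.3 and 128 CPM (adjusted p = 0.381). The median log2 change over the 9 was −0.35, with 7 below 0, beside −0.01 for all genes. Markers of progenitor stages also lay without overlap between the genotypes. Kit was at 122 and 146 CPM in WT and 68.3 and 80.6 CPM in PyMT mice, Cd34 at 733 and 772 against 613 and 705 CPM, Cd48 at 283.5 and 257 against 352 and 315 CPM, and the granulocyte enzyme Mpo at 3141 and 1419.6 against 4368 and 3670.4 CPM. Their part in the results for Runx2 and the receptor chains was not tested.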

How the data were processed

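The deposited bulk table held raw counts of reads per gene for 8 MSC libraries. Trim Galore, STAR 2.5.3a, Cell Ranger 6.0.0 and build mm10 appear in the submitters' processing notes. How reads were assigned to genes, with which annotation and strand option, is not given in the sources used here. Antisense and overlapping genes can therefore not be told apart from their partners. The deposited single-cell files held raw UMI counts per gene and cell, and the cluster of each stromal cell was taken from the authors' deposited annotation, together with the fraction of its UMIs from mitochondrial genes, as deposited. For HSPC the authors deposited a percent of mitochondrial UMIs, which was not used for filtering. The genotype label was used for HSPC, whose titles carry a PyMT prefix in every library.

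Bulk counts, and HSPC counts summed per mouse, were tested with edgeR 4.0.16 in R 4.3.3 (TMM factors, quasi-likelihood test, filterByExpr, Benjamini-Hochberg adjustment over all genes tested, threshold 0.05). DESeq2 1.42.0, RLE factors, no filter on low counts, the replicate number as a block and each library left out were alternatives. On simulated data with known changes the bulk fit recovered 52% of 2-fold and 76% of 4-fold changes over 16317 genes, and 5.19% of its calls were false; the HSPC fit recovered 75% and 96% over 11759 genes, and 7.57% were false.

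Stromal cells needed at least 500 genes and under 10% mitochondrial counts, which kept 2190 of 2508 WT and 3191 of 3563 PyMT cells (scanpy 1.11.5, Python 3.11.15). Scrublet called doublets among WT (30 cells, 1.37%) and PyMT cells (4, 0.125%). They stayed in, except in an alternative. Cells were thinned to 2000 UMIs to compare shares. A ratio needed at least 20 UMIs, likeness to Spp1 at least 200 UMIs, and a count of 0 allows up to 3 counts. Clusters needed at least 100 cells per library for the comparison of cells with and without Spp1, and cluster 5, with fewer, was described as well. With 1 stromal library per genotype there was no test.

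All members were named with their values, other list genes where they passed the bulk test or had the highest levels, and, as most like Spp1, the 10 genes with the highest r. The members and lists were chosen with earlier results of these data known.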

Additional observations from a re-analysis of the deposited data

Results flagged for a closer look

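In the bulk MSC libraries, a single library stood far from the other 3 of its group for 3 of the 27 genes examined, that is in 3 of 54 groups of 4. Chance alone gives about 1 in 20 groups. Tead2, a Hippo pathway transcription factor, was at 13.2 CPM in tumour-free 4, where the other 3 lay between 9.09 and 9.34 CPM. The Wnt co-receptor Lrp4 was at 229 CPM in Py230 1, where the others lay between 361 and 384 CPM. The heat shock gene Hspa1a was at 183 CPM in tumour-free 4, where the others lay between 84.0 and 100.2 CPM. None of the 10 genes described here was among them.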

How the results depend on the processing

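In bulk MSC, Phex was called in all 12 alternatives, and Spp1 kept its direction in all 12. DESeq2 called 2 members and edgeR with no filter on low counts called 2, Phex and Dmp1 in both. With each library left out in turn, genes called higher ranged from 134 to 304, genes called lower from 230.0 to 426, members called from 1 to 2, the log2 change of Spp1 from 0.17 to 0.46 and members correlated with Spp1 from 0 to 0. Counts moved by over 1.5 times without tumour-free 1 (147 higher and 230.0 lower), tumour-free 2 (134 and 260.0), tumour-free 3 (188 higher) and Py230 2 (181 and 276); a second member, Dmp1, was called without Py230 1. The titles share replicate numbers, but same-numbered libraries did not deviate together (correlations −0.32, −0.15, −0.15 and −0.0013); with the replicate number as a block, 176 genes were called higher and 237 lower, and Phex stayed the member called.

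Small bulk values changed sign. Runx2 went to −0.044 with no filter and, with a library left out, to between −0.066 and 0.091 (below 0 without tumour-free 2, tumour-free 3, Py230 2 or Py230 3), Pth1r to between −0.23 and 0.00069 (above 0 without tumour-free 1) and Bglap to between −0.10 and 1.07 (below 0 without Py230 3). With a library left out, r with Spp1 ranged from −0.092 to 0.41 for Dmp1 (turned without tumour-free 3), −0.39 to 0.17 for Ibsp, −0.60 to 0.010 for Bglap, −0.39 to 0.021 for Runx2 (each turned without Py230 1) and −0.27 to 0.32 for Pth1r (turned without Py230 1, 3 or 4). The cause was not tested.

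In HSPC, DESeq2 called 466 genes higher and 159 lower. With each mouse left out, 100 to 1135 were higher and 84 to 797 lower, moving most without WT 1 (347 and 206), PyMT 1 (716 and 390.0) and PyMT 2 (1135 and 797). No paired analysis was possible because the HSPC replicate numbers come only from accession order.

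In stromal cells, the log2 ratio of Spp1 between libraries was −0.37 in cluster 0 without cells marked as doublets. In cluster 1 it was 1.70 with every deposited cell, 1.98 without doublets, 1.96 at 1500 UMIs per cell and 1.94 as a mean of per-cell CPM, and in cluster 5 it was 0.65 with every cell, 0.79 at 1500 UMIs and 0.78 as a mean of per-cell CPM. At 1000 UMIs per cell, Spp1 was found in 26.2% of WT and 15.97% of PyMT cells of cluster 0 and in 12.7% of PyMT cells of cluster 1, since fewer UMIs were drawn. For the other members summed in cluster 0, cells with over cells without Spp1 gave 0.942 with every WT cell, 0.964 in WT and 1.12 in PyMT cells at 1500 UMIs, and, leaving out Ibsp, 1.36 and 1.51. Without the cell with most UMIs of the gene, an alternative chosen after the data were seen, the ratio of Spp1 was −0.91 in cluster 0, 1.42 in cluster 1 and 1.10 in cluster 5, and that of Ibsp in cluster 1 turned to 0.094. As means of per-cell CPM the ratios of Alpl in cluster 1 (−0.21) and Dmp1 in cluster 5 (−0.025) changed sign. Without doublets that of Ibsp in cluster 2 was 0.34, and Alpl in PyMT cluster 5 cells with over without Spp1 was 0.892, where no cell was removed and the random thinning alone differed. In comparisons of cells with and without Spp1, the settings with every cell and without doublets also drew the UMIs anew. Depth limits the rare genes most: Dmp1, Sp7, Phex and, outside cluster 5, osteocalcin.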
